A study of Mus musculus with 4 samples.

Results

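The basement membrane genes examined here are 10 genes of the sheet-like matrix under epithelium, around vessels, fat cells and muscle fibres: the laminin chains Lama2, Lama4, Lama5, Lamb1 and Lamc1, the collagen IV chains Col4a1 and Col4a2, the nidogens Nid1 and Nid2, and perlecan, encoded by Hspg2. They were chosen by matching the accession of every non-control array probe to mouse RefSeq genes. Of the 10 genes, 9 had a probe, with 13 probes among them, out of 18952 genes named on the array. Lamc1, the gamma chain gene, was not matched to a probe and was not analysed here. All 13 probes were well above background on every array, and all entered the test.

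The samples were mammary glands of 13-week-old female mice, taken before tumours had formed. Every mouse carried the Δ16HER2 transgene, a splice form of the human receptor HER2. The KO group was STM KO, stathmin knockout, with 2 samples (KO 1 and KO 2), and the WT group was wild type for stathmin, with 2 samples (WT 1 and WT 2). The promoter that drives the transgene and the part of the stathmin gene that was deleted are not given in the sources used here. The labels give no animal identities, so the tests measure the spread between these samples. The question put to these samples is how gland expression changes with the loss of stathmin, a protein that destabilises microtubules.

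A basement membrane is built from a laminin network and a collagen IV network. Laminins are secreted as trimers of an alpha, a beta and a gamma chain, and the alpha chain carries the sites that cell receptors bind. Collagen IV is secreted as trimers too, most often of Col4a1 and Col4a2 chains together, and its network gives the sheet its tensile strength. Nidogens and perlecan bind both networks and help to hold them together. In the mammary gland the sheet separates myoepithelial and luminal cells from stroma, and contact with laminin is known to help maintain polarity and milk gene expression in cultured mammary epithelium.

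Levels are log2 of the background-corrected spot signal minus the log2 of the 75th percentile of the same array, which was 291.6 and 160.2 on the KO arrays and 191.4 and 144.5 on the WT arrays. The share of spots well above background was 60.4% and 66.2% on the KO arrays and 63.3% and 54.7% on the WT arrays, and no spot was saturated. Fold changes are KO minus WT on the log2 scale, from limma fitted to 24188 probes, with p-values adjusted over all of them, and with 2 arrays in each group their number limits the precision. The brighter Stmn1 probe read 4.56 and 3.34 on the KO arrays and 5.59 and 3.59 on the WT arrays (adjusted p = 0.938). The dimmer Stmn1 probe was not well above background on either KO array and was so on 1 of the 2 WT arrays, with levels of -5.71 and -5.05 on the KO arrays and -1.13 and -3.39 on the WT arrays. The position of these probes relative to the deleted part is not given, so they do not check the labels. KO 2 stood apart in its lymphocyte markers: the mean level of 5 B cell markers, relative to each gene's mean over the arrays, was -1.79 and 3.74 on the KO arrays and -0.93 and -1.02 on the WT arrays. Results are therefore also given without KO 2.

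No basement membrane gene differed between KO and WT glands at an adjusted p under 0.05, and limma called no other gene either (0% of 13235 named genes, of which 469 had an unadjusted p under 0.05). The alpha chain gene Lama5 had the lowest fold change of the set, at -0.83 ± 0.32 (SE, n = 2 per group), and was the member with an unadjusted p under 0.05. Lamb1, Hspg2 and Nid1 had fold changes from -0.47 to -0.41, Lama2 had -0.073, and Col4a2, Col4a1, Lama4 and Nid2 had fold changes from 0.12 to 0.34. The adjusted p-values of the 13 probes lay between 0.935 and 0.986.

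**Figure D1:**
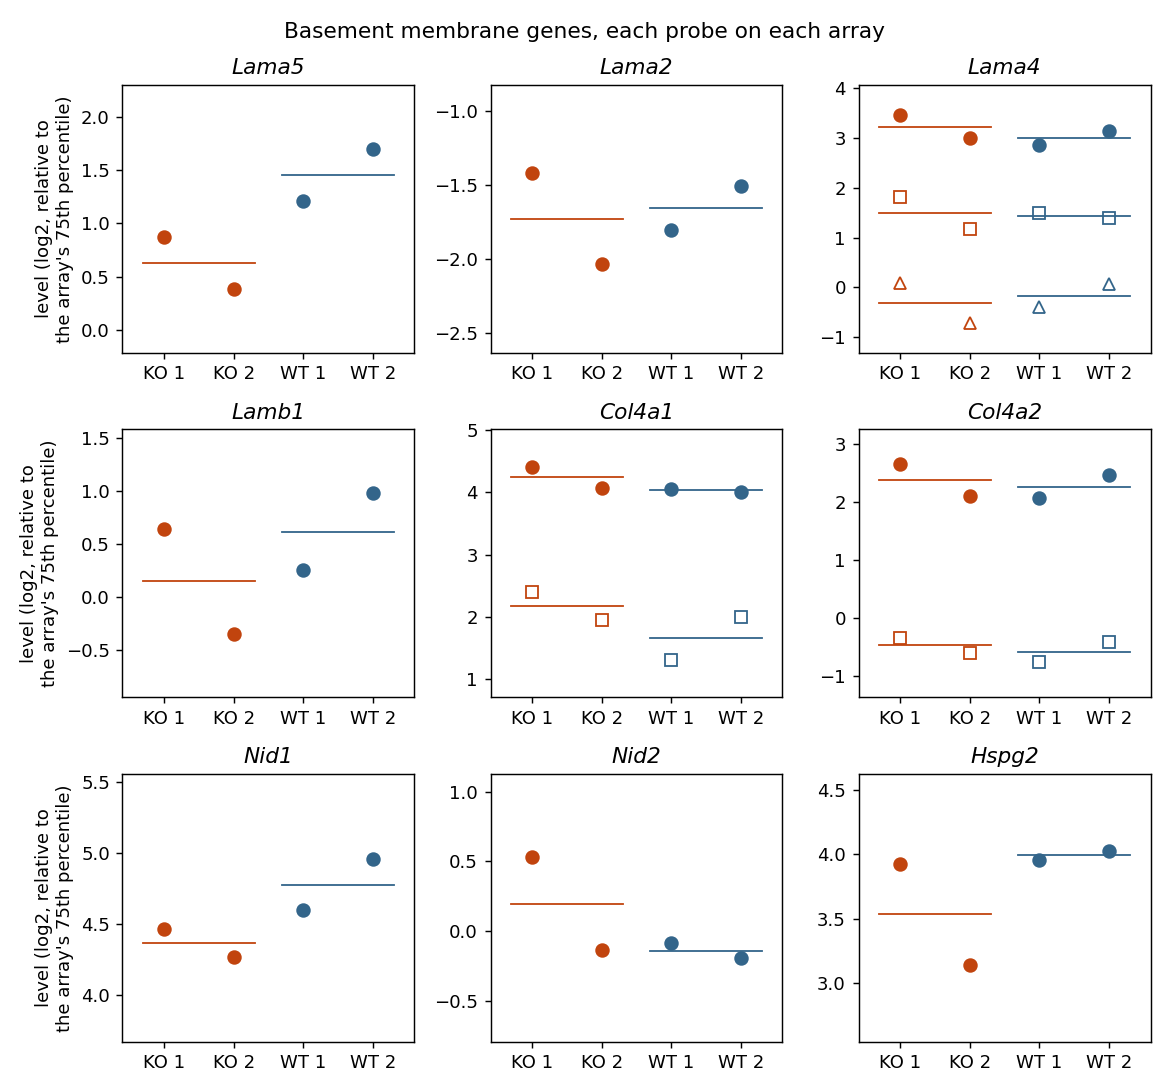
Level of each basement membrane probe on each array, in log2 units relative to the array's 75th percentile, with KO arrays in orange and WT arrays in blue. Filled circles are the brightest probe of a gene, open symbols its other probes, and lines the group means; the y axis differs between genes. Lama5, Nid1 and Hspg2 read lower on both KO arrays than on both WT arrays, by a margin of 0.034 for Hspg2.

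Among the laminin alpha chains, Lama5 is the widespread chain of epithelial and vascular basement membranes. Its probe read 0.87 on KO 1 and 0.38 on KO 2, against 1.21 on WT 1 and 1.704 on WT 2. Both KO arrays were below both WT arrays, and the arrays of each group were 0.49 apart. The group means were 0.63 ± 0.34 in KO and 1.46 ± 0.35 in WT (SD, n = 2 each), which puts the KO level at 0.562 times the WT level. The 95% interval of the log2 fold change ran from -1.64 to -0.029 (unadjusted p = 0.0446, adjusted p = 0.935). The fold change stayed between -1.08 and -0.59 when any 1 array was left out, and was -0.59 without KO 2. In the authors' deposited table of log2 values, centred on each probe's median, Lama5 had -0.19 and -0.65 on the KO arrays, against 0.19 and 0.64 on the WT arrays. The RefSeq promoter of Lama5 (GRCm38.p6, chr2:180225810-180226109, minus strand, 250 bases before to 50 after the start) is shown because Lama5 had the lowest fold change of the set. Capitals mark GC boxes, GGGCGG read on both strands, of which it holds 4.
Lama5: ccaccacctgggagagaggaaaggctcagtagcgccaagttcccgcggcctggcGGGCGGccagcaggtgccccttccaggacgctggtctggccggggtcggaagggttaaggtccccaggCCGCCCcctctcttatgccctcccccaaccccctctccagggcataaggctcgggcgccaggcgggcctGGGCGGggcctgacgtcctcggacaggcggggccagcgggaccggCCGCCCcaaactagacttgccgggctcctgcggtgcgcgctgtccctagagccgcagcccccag

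Lama4, the alpha chain typical of endothelial, fat and muscle cells, had 3 probes. The brightest read 3.47 on KO 1 and 2.997 on KO 2, against 2.86 on WT 1 and 3.14 on WT 2. The groups overlapped, and the fold change was 0.23 ± 0.29 (SE), or 0.47 without KO 2. The other Lama4 probes had fold changes of 0.055 ± 0.31 and -0.15 ± 0.37, so the 3 probes spanned 0, each within its SE of 0. All 3 Lama4 probes read lower on KO 2 than on KO 1, by 0.47, 0.66 and 0.79.

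Lama2, the alpha chain of muscle fibres and Schwann cells, read -1.42 on KO 1 and -2.03 on KO 2, against -1.80 on WT 1 and -1.51 on WT 2. KO 1 had the highest and KO 2 the lowest of the 4 values, so the WT arrays lay between the KO arrays. The fold change was -0.073 ± 0.32 (SE), with a 95% interval from -0.87 to 0.73, and its sign was set by single arrays: it was 0.23 without KO 2 and -0.38 without KO 1. It was 0.10 under median scaling.

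Lamb1 encodes the beta chain that pairs with these alpha chains in many laminins. It read 0.64 on KO 1 and -0.35 on KO 2, against 0.25 on WT 1 and 0.98 on WT 2. The lowest value was on KO 2 and the highest on WT 2, and KO 1 lay between the WT arrays. The arrays of a group were 0.99 (KO) and 0.73 (WT) apart, more than the fold change of -0.47 ± 0.45 (SE). Without KO 2 the fold change was 0.025, and without KO 1 it was -0.96.

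All 4 probes of the collagen IV chains had positive fold changes, smaller than or near their errors except on the dimmer Col4a1 probe. The brighter Col4a1 probe read 4.41 on KO 1 and 4.07 on KO 2, against 4.06 on WT 1 and 4.01 on WT 2. Both KO arrays were above both WT arrays, by a margin of 0.013 between KO 2 and WT 1. The dimmer Col4a1 probe read 2.40 and 1.95 on the KO arrays, against 1.31 and 2.001 on the WT arrays, and overlapped. The fold changes of the Col4a1 probes were 0.21 ± 0.26 and 0.52 ± 0.35 (SE). Col4a2 read 2.65 on KO 1 and 2.11 on KO 2, against 2.07 on WT 1 and 2.46 on WT 2, and its second probe read -0.35 and -0.60 on the KO arrays, against -0.77 and -0.43 on the WT arrays. The groups overlapped on both Col4a2 probes, with fold changes of 0.12 ± 0.31 and 0.12 ± 0.27 (SE). The 95% intervals of the brightest probes, -0.45 to 0.86 for Col4a1 and -0.68 to 0.91 for Col4a2, include a change of either sign. Without KO 2 the fold changes were 0.37 for Col4a1 and 0.39 for Col4a2. Without KO 1 the fold change of Col4a2 was -0.16, and without WT 1 it was -0.082.

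Col4a1 and Col4a2 lie head to head on chromosome 8, transcribed in opposite directions from a shared promoter region, and their promoters are shown for that reason. The windows are chr8:11312777-11313076 on the minus strand for Col4a1 and chr8:11312555-11312854 on the plus strand for Col4a2 (RefSeq, GRCm38.p6), and their last 78 bases are the reverse complement of each other. Capitals mark GC boxes (GGGCGG) and CCAAT boxes (CCAAT), both read on both strands.
Col4a1: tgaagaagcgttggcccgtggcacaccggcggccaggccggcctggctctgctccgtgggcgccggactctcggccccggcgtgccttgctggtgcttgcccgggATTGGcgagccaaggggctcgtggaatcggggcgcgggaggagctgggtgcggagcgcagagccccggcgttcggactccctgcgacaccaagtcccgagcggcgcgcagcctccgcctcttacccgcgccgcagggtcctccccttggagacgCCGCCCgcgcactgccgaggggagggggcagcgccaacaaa
Col4a2: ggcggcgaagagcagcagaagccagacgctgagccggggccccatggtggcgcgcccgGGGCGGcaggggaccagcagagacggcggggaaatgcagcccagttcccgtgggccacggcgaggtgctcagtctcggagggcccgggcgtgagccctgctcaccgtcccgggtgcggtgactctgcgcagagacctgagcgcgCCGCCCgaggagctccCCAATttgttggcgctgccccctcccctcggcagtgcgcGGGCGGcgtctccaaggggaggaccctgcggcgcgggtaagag
The Col4a1 window held 1 GC box and 1 CCAAT box, and the Col4a2 window 3 GC boxes and 1 CCAAT box. The GC box of the Col4a1 window lies in the shared bases, so it is the same site as the last 1 marked for Col4a2 and is counted in both windows. RefSeq windows were found for 7 of the 10 genes. A GC box was present in all 7 of them and in 35.7% of the 32851 mouse promoter windows of 300 bases. A CCAAT box was present in 4 of the 7, those of Col4a1, Col4a2, Lamb1 and Nid1, and in 37.4% of all windows. These matches describe the letters in the windows.

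Of the linker proteins, the nidogens had fold changes of opposite sign. Nid1 read 4.46 on KO 1 and 4.27 on KO 2, against 4.60 on WT 1 and 4.96 on WT 2. Both KO arrays were below both WT arrays, with group means of 4.37 ± 0.14 in KO and 4.78 ± 0.26 in WT (SD, n = 2 each) and a fold change of -0.41 ± 0.27 (SE, 95% interval -1.09 to 0.26). With any 1 array left out the Nid1 fold change lay between -0.59 and -0.23, and without KO 2 it was -0.31. Nid2, the other nidogen, is also found in vessel walls. It read 0.53 on KO 1 and -0.14 on KO 2, against -0.09 on WT 1 and -0.19 on WT 2. KO 1 was above the other arrays, which lay within 0.11 of each other, and the fold change of 0.34 ± 0.31 (SE) became 0.0054 without KO 1 and 0.67 without KO 2.

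Hspg2 encodes perlecan, a large heparan sulfate proteoglycan that also stores growth factors. It read 3.92 on KO 1 and 3.14 on KO 2, against 3.96 on WT 1 and 4.03 on WT 2. The WT arrays and KO 1 lay within 0.104 of each other and KO 2 was below them, so the fold change of -0.46 ± 0.34 (SE) was -0.069 without KO 2 and -0.85 without KO 1. The groups did not overlap for Hspg2, but the gap between KO 1 and WT 1 was 0.034.

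**Figure D2:**
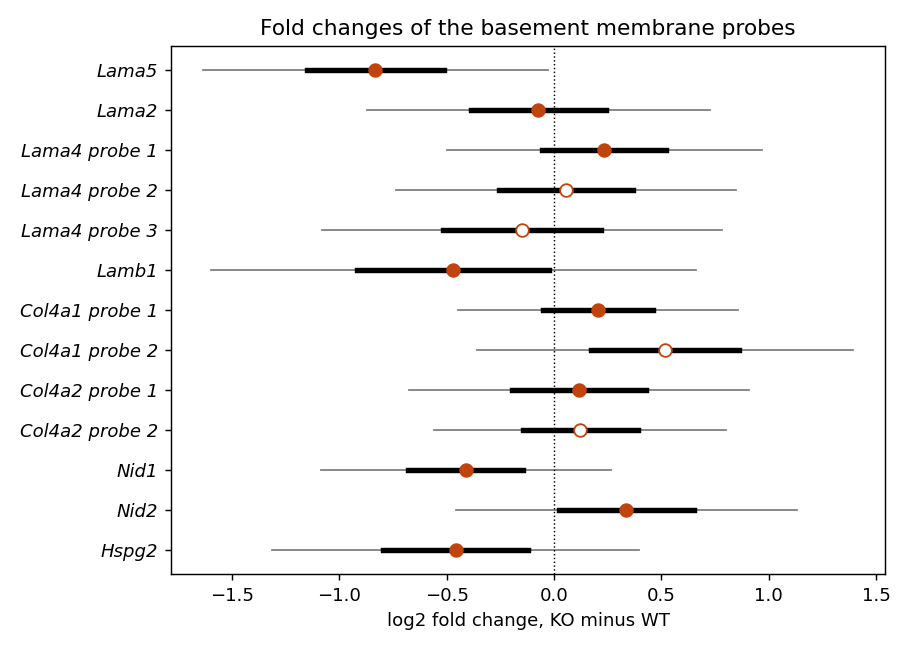
Log2 fold change, KO minus WT, of each of the 13 basement membrane probes. Circles are estimates (filled for the brightest probe of a gene), thick bars the SE and thin lines the 95% interval from limma; the interval of Lama5 alone leaves out 0, ending at -0.029, before adjustment over all probes.

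As a set and by the brightest probe of each gene, 1 of the 9 genes had an unadjusted p under 0.05 and was lower in KO, where 2.4% of all tested genes did, and 0 of 9 were higher, where 1.14% of all genes did. Both KO arrays lay below both WT arrays for 3 of the 9, Lama5, Nid1 and Hspg2, against 17.8% of all genes. Both lay above for 1 of the 9, Col4a1, against 17.7% of all genes. With each array's median in place of the 75th percentile both counts were 0, and the all-gene median became 0.17. Of the 9 fold changes 5 were negative. The median of the 9 was -0.073, and the median of all tested genes was -0.0062. Without KO 2 the median of the set was 0.23, and without KO 1 it was -0.38.

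**Figure D3:**
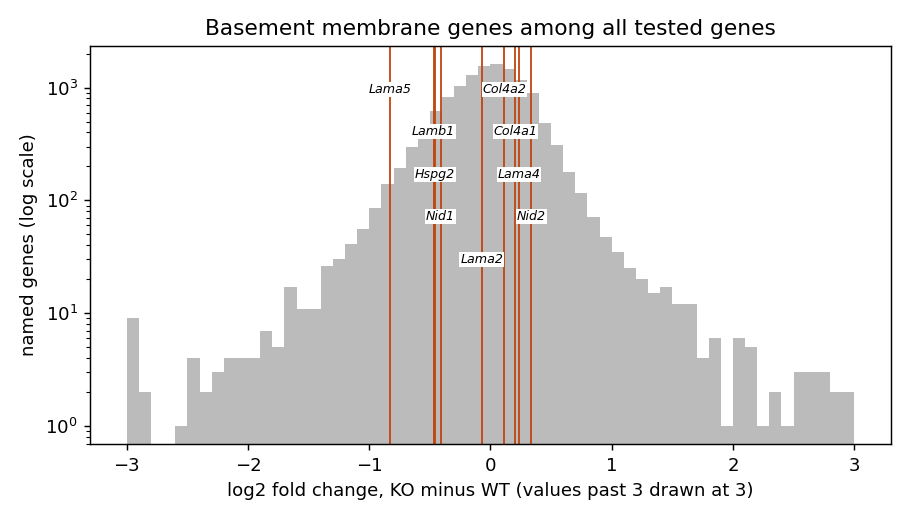
Histogram of log2 fold changes, KO minus WT, of 13235 named genes by their brightest probe, on a log count axis, with a line at each of the 9 basement membrane genes. The lines run from -0.83 for Lama5 to 0.34 for Nid2.

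The KO arrays differed from each other in the same direction for every gene measured. All 9 read lower on KO 2 than on KO 1, where 48.7% of all tested genes did, with a median difference (KO 2 minus KO 1) of -0.54 for the set and 0.016 for all genes. The differences ran from -0.99 for Lamb1 to -0.19 for Nid1. Between the WT arrays, 2 of the 9 genes, Col4a1 and Nid2, read lower on WT 2 than on WT 1, where 49% of all genes did, and the median difference (WT 2 minus WT 1) was 0.30. For 7 of the 9 genes, all but Lama5 and Nid1, the arrays of 1 genotype differed by more than the groups did. Relative to each gene's mean, the mean level of the 9 genes was 0.21 on KO 1 and -0.36 on KO 2, against -0.062 on WT 1 and 0.21 on WT 2.

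**Figure D4:**
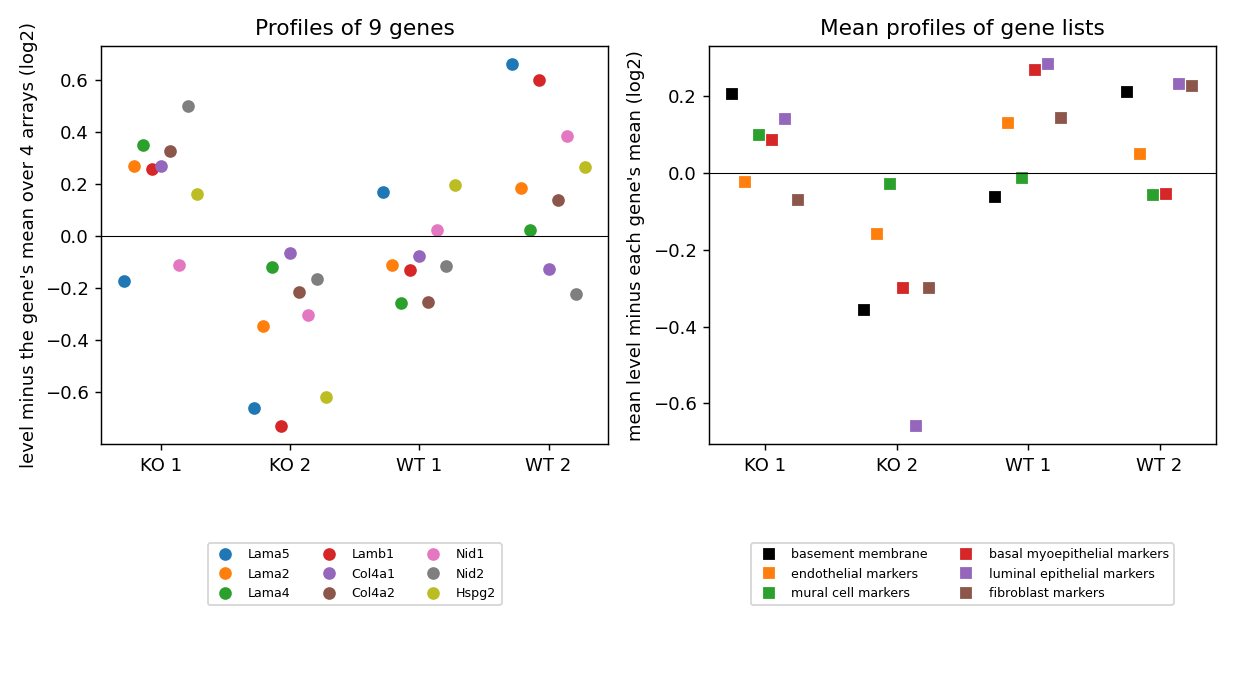
Left, level of each basement membrane gene on each array minus its mean over the 4 arrays (log2, brightest probe). Right, the same averaged over the 9 genes and over marker lists; the basement membrane mean is 0.21 on KO 1 and -0.36 on KO 2, and the luminal mean is 0.14 and -0.66 on the same arrays.

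Members that act side by side were compared within arrays, as the difference between a pair of genes on each array minus its mean over the arrays, for 6 pairs chosen with their values known. Lama5 minus Lama4 was -0.53 and -0.54 on the KO arrays, against 0.43 and 0.64 on the WT arrays. The KO minus WT difference was -1.07 on the brightest Lama4 probe, and it is smaller against the other Lama4 probes, whose fold changes were 0.055 and -0.15. Lama5 minus Lama2 was -0.44 and -0.31 on the KO arrays, against 0.28 and 0.48 on the WT arrays. Nid1 minus Nid2 was -0.61 and -0.14 on the KO arrays, against 0.14 and 0.61 on the WT arrays, and Hspg2 minus Col4a1 was -0.11 and -0.55 on the KO arrays, against 0.27 and 0.39 on the WT arrays. Col4a1 minus Col4a2 was -0.059 and 0.15 on the KO arrays, against 0.18 and -0.27 on the WT arrays, and overlapped, as did Lama5 minus Lamb1. Since the pairs were chosen with these values known, the differences are a description with no test.

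**Figure D5:**
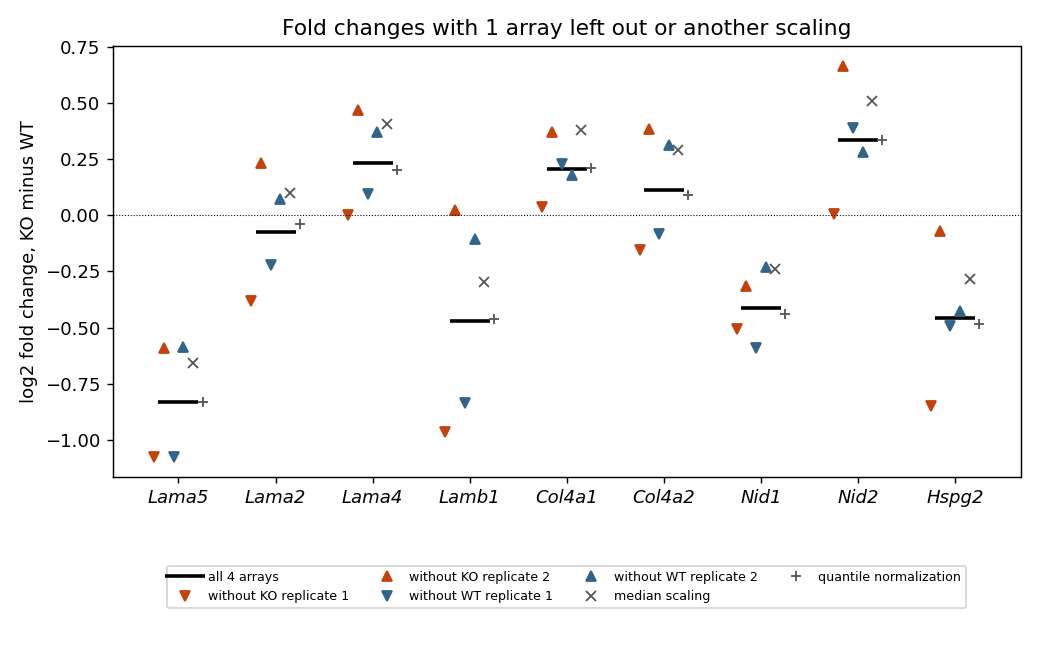
Log2 fold change, KO minus WT, of each basement membrane gene with all 4 arrays (black bars), with 1 array left out (triangles) and under other scalings (crosses). The fold changes of Lama5 run from -1.08 to -0.59 with 1 array left out, and those of Lamb1 from -0.96 to 0.025.

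The other collagen IV and laminin chains had a median fold change of -0.24 over the 6 tested of 10, with 0 at an unadjusted p under 0.05 in either direction. Both KO arrays were below both WT arrays for 1 of the 6, against 17.8% of all genes. The median of these chains was 0.10 without KO 2 and -0.39 without KO 1. Among them Lamb3, a beta chain of the laminin of hemidesmosomes, had -0.48 ± 0.32 (SE), and Col4a4, a chain of the kidney glomerulus, had -0.25 ± 0.29. Col4a3, Col4a5, Lama1 and Lamc3 did not pass the filter on dim probes.

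Other basement membrane components had a median of -0.22 over 16 genes, or -0.0050 without KO 2 and -0.43 without KO 1. Of these, 2 had an unadjusted p under 0.05 in limma and were lower in KO, against 2.4% of all genes, and 0 were higher, against 1.14%. Both KO arrays lay below both WT arrays for 7 of the 16 and above for 3, against 17.8% and 17.7% of all genes. Negative fold changes were found for 12 of the 16 and for 6719 of all 13235 genes. Npnt, which encodes nephronectin, a ligand of integrins in epithelial basement membranes, read -3.59 and -1.94 on the KO arrays, against -0.80 and -0.19 on the WT arrays. Both KO arrays were below both WT arrays, with a fold change of -2.27 ± 0.59 (SE, unadjusted p = 0.0111, adjusted p = 0.935) and -2.31 on its second probe. Fras1, a component under epithelium that is mutated in human Fraser syndrome, had -1.08 ± 0.33 (unadjusted p = 0.0198), and its partner Frem2 had -1.16 ± 0.51, or -0.079 on its second probe.

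Laminin and collagen IV receptors had a median of -0.055 over 12 genes, with 9 negative and 0 at an unadjusted p under 0.05 in either direction. The sign of that median followed single KO arrays: it was 0.19 without KO 2 and -0.21 without KO 1. The syndecans Sdc4 and Sdc1 had -0.54 ± 0.40 and -0.25 ± 0.45 (SE), and Itgb4, the integrin chain of hemidesmosomes, had -0.26 ± 0.36. Genes of collagen IV folding and secretion had a median of 0.039 over 12 genes, also with 0 at that threshold, and the median lay between -0.24 and 0.25 with 1 array left out. Among them the collagen prolyl hydroxylases pointed both ways, P3h2 at -0.67 ± 0.31 and P4ha1 at 0.43 ± 0.25 (-0.10 on its second probe), and the collagen chaperone Serpinh1 had -0.47 ± 0.29. Integrin adhesion genes had a median of -0.064 over 12 genes, from -0.15 to 0.034 with 1 array left out, again with 0 at that threshold, with Lims1 at -0.64 ± 0.49, the hemidesmosome collagen Col17a1 at -0.34 ± 0.39 and talin, Tln1, at 0.32 ± 0.24.

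Markers of the cells that make basement membrane were measured on the same arrays. In bulk tissue, fewer cells of a type and less RNA per cell cannot be told apart. Luminal markers, 12 of 12 tested, had a summed signal of 125.6 and 79.0 times the 75th percentile on the KO arrays, against 106.0 and 141.8 on the WT arrays, with a median fold change of -0.40, or -0.090 without KO 2 and -0.85 without KO 1. The luminal markers Ehf, Prss8 and Spint1 had -1.38 ± 0.74, -1.03 ± 0.31 and -0.73 ± 0.37 (SE), and 11 of the 12 luminal markers read lower on KO 2 than on KO 1. Basal myoepithelial markers, 11 of 11, summed to 126.3 and 112.6 on the KO arrays, against 152.7 and 131.2 on the WT arrays. Their median was -0.29, or -0.049 without KO 2 and -0.052 without WT 1. Their largest fold changes were those of Cdh3, Myh11 and Krt14, at -0.49 ± 0.32, -0.48 ± 0.24 and -0.35 ± 0.54. Fibroblast markers, 10 of 10, summed to 264.6 and 267.7 on the KO arrays, against 398.6 and 396.9 on the WT arrays, with a median of -0.46, or from -0.56 to -0.34 with 1 array left out. Both KO arrays were below both WT arrays for 7 fibroblast markers, against 17.8% of all genes, among them Col3a1, Col1a1 and Dcn at -0.70 ± 0.24, -0.66 ± 0.28 and -0.65 ± 0.28.

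Vascular marker lists had medians nearer to 0. Endothelial markers, 12 of 12, summed to 69.3 and 65.6 on the KO arrays, against 74.3 and 69.2 on the WT arrays, with a median of -0.13, or -0.036 without KO 2, and with Erg, Cdh5 and Tek at -0.53 ± 0.27, -0.46 ± 0.25 and -0.46 ± 0.51 (SE). Mural cell markers, 8 of 8, summed to 55.5 and 47.4 on the KO arrays, against 46.1 and 54.8 on the WT arrays, with a median of -0.03, from -0.087 to 0.17 with 1 array left out, and with Cspg4, Kcnj8 and Pdgfrb at 0.64 ± 0.24, 0.37 ± 0.24 and -0.25 ± 0.30. The part of these cell types in the fold changes of Lama5, Nid1 and the other basement membrane genes was not tested.

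White adipocyte markers had a median of -0.19, whose sign was not stable: it was 0.17 without WT 2 and 0.16 in the authors' deposited table. Among them Lep, Fabp4 and Lpl had 0.59 ± 0.54, -0.42 ± 0.33 and -0.38 ± 0.25 (SE). The second Lpl probe had the opposite sign, at 0.47. Skeletal muscle markers had a median of -0.39, or -0.042 without KO 1 and -0.18 without WT 1. Pvalb, Ryr1 and Myh4 were at -1.66 ± 0.58, -0.81 ± 0.36 (0.16 on the second Ryr1 probe) and -0.41 ± 0.26. Schwann cell and nerve markers had a median of -0.23, from -0.37 to -0.19 with 1 array left out, with Sox10 and Prx at -1.93 ± 0.45 and -0.50 ± 0.25. Macrophage markers had a median of -0.47, or -0.87 without WT 1 and -0.16 without WT 2, with Cd163, Clec10a and Mrc1 at -1.15 ± 0.25, -1.07 ± 0.32 and -0.54 ± 0.34. T cell markers, 7 of 8 tested, summed to 0.78 and 14.7 on the KO arrays, against 0.78 and 0.65 on the WT arrays. B cell markers, 5 of 7 tested, summed to 0.57 and 24.5 on the KO arrays, against 0.76 and 0.61 on the WT arrays. The lymphocyte genes Cd3d and Cd79b, well above background on all 4 arrays, had fold changes of 2.79 ± 1.54 and 2.57 ± 1.49 (SE). Bcl11b and Ms4a1 had fitted fold changes of 3.10 ± 1.44 and 2.73 ± 2.60, but Bcl11b was well above background on 1 of the 2 WT arrays and Ms4a1 on 1 of the 2 KO arrays. Cd2 and Spib were not well above background on the WT arrays, and their KO means were at least 3.17-fold and 4.78-fold higher. Those means rest on KO 2, and the groups overlapped for both genes. Cd2 read -4.58 and -0.057 on the KO arrays, against -5.18 and -4.11 on the WT arrays. Spib read -4.09 and 0.87 on the KO arrays, against -3.95 and -4.50 on the WT arrays. Without KO 2 the median fold change was 0.066 for T cell markers and -0.79 for B cell markers, against 2.18 and 2.57 with all arrays. Those lymphocyte values were high on KO 2 alone, the array on which all 9 basement membrane genes read lower than on KO 1, and their part in that difference was not tested.

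Among the other 13226 named genes, the 5 whose profile over the 4 arrays lay nearest to the mean profile of the basement membrane genes were Nanp, Bbox1, AI413582, Arhgap21 and Btf3l4, at root mean square differences from 0.016 to 0.035 on the log2 scale. With 4 arrays such likeness is common: 182 genes lay within 0.1. Within the set, Lama2 was nearest to the mean profile, at 0.043, and Lama5 farthest, at 0.35.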

How the data were processed

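Cy3-labelled RNA of 4 mammary gland samples was hybridised to 1-colour Agilent arrays on 1 slide, per the labels and the file headers, so slide could not be tested as a batch. The authors deposited spot intensity values from Agilent Feature Extraction (11.5.1.1 per the file headers, 10.7.3.1 per the submitters' processing notes), background-subtracted and detrended within each array per the file headers. They also deposited a table of log2 values; scale, centring and direction were settled by setting it against the scanner values, where it matched quantile-normalized log2 signals centred on each probe's median (Pearson r from 0.99988 across 41174 probes; column medians 0.006, -0.010, -0.018 and 0.018 for KO 1, KO 2, WT 1 and WT 2).

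Control spots and outlier spots (35 to 73 per array) were left out. Levels were log2 processed signals minus each array's 75th percentile. The filter kept probes that were well above background in both samples of KO, of WT or of both (24188 of 41174). Accessions matched to RefSeq genes (GRCm38.p6) named 27816 probes, and the brightest tested probe stood for a gene. KO was set against WT in limma 3.58.1 (R 4.3.3; lmFit, eBayes, Benjamini-Hochberg adjustment), a step tested on simulated data. The lower bounds for Cd2 and Spib set the KO mean against a WT mean in which each array takes its own reading of the probe or, if higher, the dimmest reading that still counted as well above background there. The text names all members, Stmn1, the 3 largest absolute fold changes of each other list, and the 5 nearest profiles. Of the genes this rule picks, 2 are not reported here. Members and lists were chosen with earlier results of these data known. The description field, which names EOC cells against the other labels, was not used. Alternatives covered normalization, background correction, filters, the authors' table, the replicate block and leaving out each array.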

Additional observations from a re-analysis of the deposited data

How the results depend on the processing

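The results were recomputed under 14 alternatives, of which normexp on median spot signals was chosen after seeing the data in place of normexp on mean signals, which was not run. The slide as a block was not run, since there was 1 slide. Of 126 fold changes of basement membrane genes under the alternatives, 119 kept their direction and stayed on the same side of the threshold. Those that turned were Lama2 under median scaling (0.10), without KO replicate 2 (0.23) and without WT replicate 2 (0.075), Col4a2 without KO replicate 1 (-0.16) and without WT replicate 1 (-0.082), Lama4 without KO replicate 1 (-9.56e-05) and Lamb1 without KO replicate 2 (0.025). Many of the 119 had no room to change. The other filters, the outlier spots kept and the replicate block left every basement membrane fold change as in the main comparison. Averaging probes could alter only genes with more than 1 probe. No basement membrane gene was near the threshold in the main comparison, so staying on the same side of it says little. With 1 array left out at a time, the fold change ran from -0.38 to 0.23 for Lama2, from -0.16 to 0.39 for Col4a2, from -9.56e-05 to 0.47 for Lama4 and from -0.96 to 0.025 for Lamb1. Median scaling moved the median of all genes to 0.17 and the set's median to 0.10, and 6 probes of the whole table then passed an adjusted p of 0.05, none of them from a basement membrane gene, against 0 otherwise. The set's median ran from -0.38 to 0.23 with 1 array left out.

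The count of members with an unadjusted p under 0.05 and lower in KO was 1 in the main comparison. Among the alternatives that kept all arrays, it was 0 under median scaling, without the filter on dim probes and with the replicate block. With 1 array left out, 1 group has a single array, so those fits do not show that the call holds. The Lama5 fold change then ran from -1.08 to -0.59. The count with both KO arrays below both WT arrays, 3 in the main comparison, was 0 under median scaling and 1 with normexp. With 1 array left out it was 3 to 5, where 1 group has a single array to compare. The count above, 1 in the main comparison, was 0 under quantile normalization, median scaling, the percentile of detected probes and the authors' table, 2 with normexp, and 1 to 5 with 1 array left out. The cause of these moves was not tested. No pairing of the arrays by replicate number was taken, because the labels link none and the correlation of same-numbered deviations was 0.0648. Of 224 medians of the other lists, 207 moved by less than 0.335, the spread between replicates of the basement membrane genes' own median level. That yardstick is not the replicate spread of each list, and a median can change sign within it. The receptor median did so, from -0.055 to 0.19 without KO 2. All 13 member probes were well above background on every array, but the background correction still moved some of their fold changes. With normexp the fold change was 0.30 for Col4a2, against 0.12 in the main comparison, and 0.39 for Lama4, against 0.23. That of Lama5 was -0.77, against -0.83. For dim genes of other lists, signal over background is a limit.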
